A study of Mus musculus with 6 samples.

Results

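The 10 genes described here are the 4 ID factors (Id1, Id2, Id3 and Id4) and 6 genes of the bone morphogenetic protein (BMP) pathway: the ligand Bmp4, the receptor Bmpr1a, the signal carriers Smad1 and Smad5, and the inhibitors Smad6 and Bambi. They were chosen by symbol, with earlier results of these data known, and all 10 were found among the 25899 genes of the count table. Newly made RNA was captured from E14tg2a cells, a mouse embryonic stem cell line of 129SV background, all carrying a stable cRAF-ErT2 cassette, a kinase fused to a receptor domain that 4-hydroxytamoxifen (4OHT) switches on, which activates the kinase ERK. Clones a, b and c each gave 1 untreated library and 1 library from cells given 250 nM 4OHT for 2 h, so n = 3 libraries per group. All cells had first grown in medium with serum, LIF and the GSK3 inhibitor CHIR99021 (2 µM). In the last 24 h before treatment the FGF receptor inhibitor PD173074 (250 nM) took the place of CHIR99021. RNA made in the last 15 min was labelled with 5 mM ethynyl uridine. The promoter that drives the cassette is not given in the sources used here, and no library comes from 4OHT-treated cells without it, so an effect of 4OHT itself and an effect through the kinase cannot be told apart.

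BMP ligands bind a pair of receptor types on the cell surface, and the type I receptor then phosphorylates SMAD1, SMAD5 and SMAD9. These join SMAD4, enter the nucleus and switch on target genes, of which the ID genes are the best known. ID proteins hold a helix-loop-helix domain but no DNA-binding region, and they block other helix-loop-helix factors by pairing with them. SMAD6 and BAMBI are both targets and inhibitors of the pathway. In mouse embryonic stem cells grown with LIF, serum is a known source of BMP activity, and ID proteins are known to help hold back differentiation.

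Total counts were 7295334 to 12168380 per library. Levels are given as CPM, counts scaled to library size with TMM factors. A gene with no count in a library could still have up to 3 counts, or 0.227 to 0.438 CPM, by counting error alone. Clone c stood apart from a and b in both groups (chi-square per degree of freedom 5.38 to 11.3 against either, and 2.29 to 2.44 between a and b). All 10 embryonic stem cell markers checked were detected well enough to test, with a summed level of 2815 to 2955 CPM untreated and 2103 to 2547 CPM after 4OHT, 2 of them higher and 5 lower. Of 8 fibroblast markers S100a4 and Postn were at 0 and the list summed to 412 to 541 CPM untreated and 142 to 231 CPM after 4OHT, nearly all of it Fn1 (491 and 187 CPM on average). Of the 3 fibroblast markers tested 2 were lower and 1 higher, the last being Col1a1 (0.258 and 2.90 CPM on average, log2 fold change 3.45, edgeR adjusted p = 0.0001043). Summed levels were 42.9 to 51.5 CPM untreated and 19.0 to 20.4 CPM treated for 6 primitive endoderm markers, mostly Dab2. For 5 trophoblast markers they were 81.5 to 96.5 CPM and 53.0 to 69.5 CPM, mostly Tfap2c (means 80.2 and 48.5 CPM). The 4 neural markers, with Tubb3 at 0, summed to 29.4 to 31.4 and 19.3 to 20.8 CPM, mostly Map2 (means 23.7 and 15.6 CPM). The 5 mesoderm markers, with Mesp1 at 0, summed to 3.28 to 4.40 and 5.93 to 7.01 CPM. The part of these other cell types in the results was not tested. In such bulk libraries fewer cells of a type and less RNA per cell cannot be told apart.

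After 2 h of 4OHT, nascent RNA of Id3 and Bmp4 was higher, by a fitted 3.01-fold and 3.68-fold, while that of Id2 and the inhibitor Smad6 was lower, by 5.54-fold and 2.36-fold. The family and the pathway thus each held genes that moved in opposite directions. Of the 10 genes, Id3, Bmp4 and Bmpr1a rose, Id2, Smad6, Bambi and Smad1 fell, and Id1, Id4 and Smad5 did not pass the test (edgeR quasi-likelihood test, adjusted p below 0.05 over 13869 genes). Against these 7 of 10, 57.1% of all genes tested were called, 28.5% higher and 28.6% lower, so changes of this kind were common in these libraries. The changes reached 2-fold for 4 genes (Id2, Id3, Bmp4 and Smad6), against 16.4% of all genes. The median size of change on the log2 scale, in either direction, was 0.67 over the 10 genes and 0.39 over all genes tested, and the signed medians were -0.17 and 0.00. Since the 10 genes were chosen with earlier results of these data known, these contrasts with all genes are descriptions only. In 6 of the 10 (Id2, Id3, Bmp4, Bmpr1a, Smad6 and Bambi) the untreated and treated libraries did not overlap, as was so for 63.3% of all genes. Scaling by library size alone lowers every log2 fold change by about 0.20 and gave 2 of the 10 higher and 6 lower, against 2408 and 5681 of all genes (3953 and 3968 with TMM). Without clone c, 4 were higher and 5 lower, against 4159 and 4328 of the 14059 genes tested there. With clone as a replicate block, 4 were higher and 4 lower, where 67.4% of all genes were called.

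**Figure D1:**
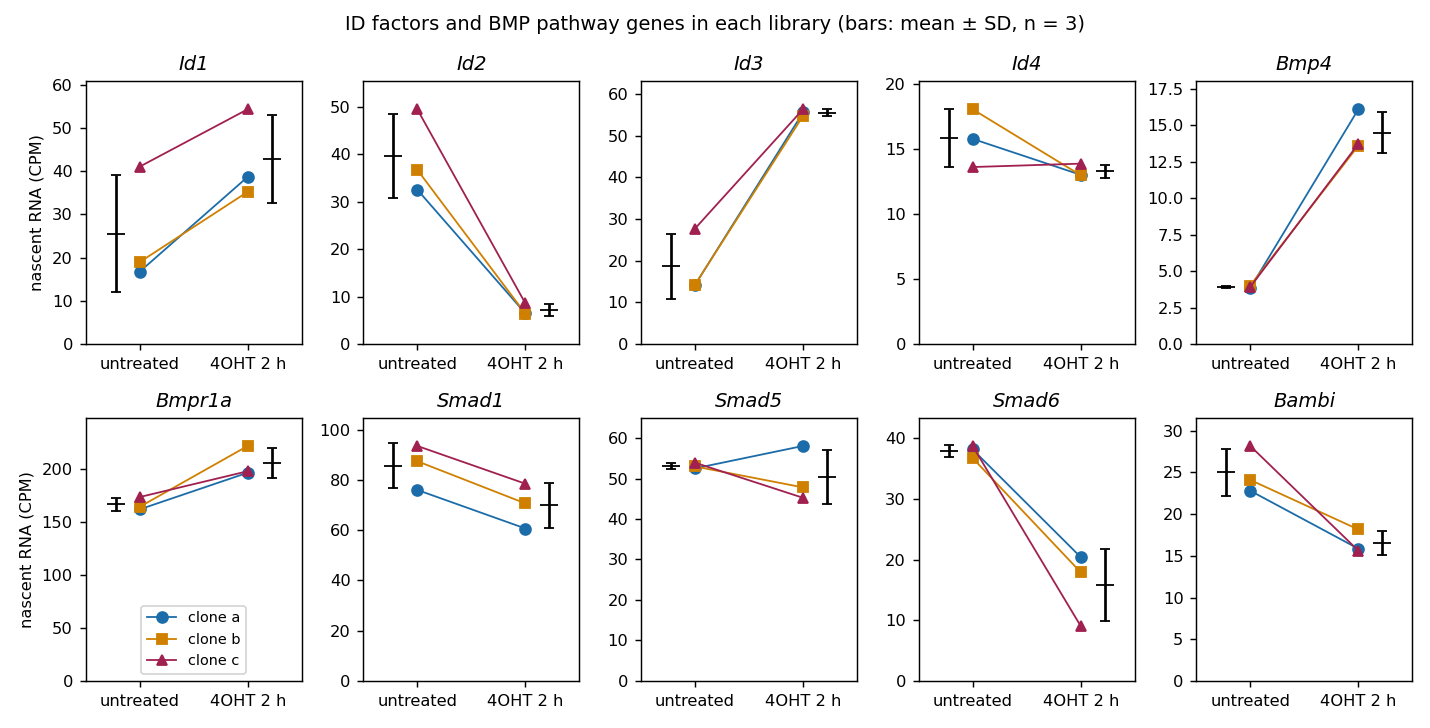
Nascent RNA of each of the 10 genes (y axis, TMM-scaled CPM from 0) in untreated and 4OHT-treated libraries (x axis). Coloured points are libraries, lines join the libraries of a clone, and black bars are the mean ± SD of 3 libraries. Id2, Smad6 and Bambi are lower and Id3, Bmp4 and Bmpr1a higher in every treated library than in any untreated one. Clone c starts highest for all genes but Id4 and Bmp4, most clearly for Id1, Id2 and Id3.

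Id2 had the largest change of the 10. Untreated libraries of clones a, b and c held 32.6, 36.8 and 49.5 CPM, and treated ones, in the same clone order here and in what follows, 6.50, 6.43 and 8.61 CPM. Every treated library was far under every untreated one, and clone c was highest in both groups. The mean was 39.6 ± 8.83 CPM untreated and 7.18 ± 1.24 CPM treated (SD, n = 3), a log2 fold change of -2.47 ± 0.19 (SE; edgeR adjusted p = 2.76e-06), or 5.54-fold lower. The fall was alike in the clones, at -2.29, -2.48 and -2.50 in a, b and c (each the difference of log2 CPM between the 2 libraries of the clone). Id2 (chromosome 12, 25093799 to 25097140, minus strand, GRCm38) encodes an ID protein that, beyond its role as a BMP target, is used as a trophoblast marker in early embryos.

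Id3 (chromosome 4, 136143497 to 136145755, plus strand) moved the opposite way. It stood at 14.2, 14.3 and 27.7 CPM untreated and at 55.6, 54.7 and 56.3 CPM after 4OHT. Untreated clone c was well above the other untreated clones, yet all treated libraries were nearly level. The mean was 18.7 ± 7.79 CPM untreated and 55.5 ± 0.798 CPM treated, 3.01-fold higher (log2 fold change 1.59 ± 0.21, edgeR adjusted p = 0.000126). Within the clones the rise was 1.96, 1.93 and 1.02.

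Id1 (chromosome 2, 152736251 to 152737410, plus strand), the ID gene most often read as a sign of BMP signalling, was higher in the treated library of each clone, but its groups overlapped. Untreated libraries held 16.7, 19.0 and 41.0 CPM and treated ones 38.7, 35.2 and 54.3 CPM, so untreated clone c was above treated a and b. The log2 fold change was 0.75 ± 0.30 (edgeR adjusted p = 0.0515), and within the clones it was 1.20, 0.89 and 0.40. In the fit that blocks on clone the difference passed the test (0.80, edgeR adjusted p = 3.43e-06), and it also did without untreated clone c (1.24, adjusted p = 0.000287) and without both libraries of clone c (1.02, adjusted p = 1.02e-06). Over the 16 alternatives computed for this gene the adjusted p ran from 1.02e-06 to 0.182, and 6 called it higher.

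Id4 (chromosome 13, 48261228 to 48266026, plus strand), which overlaps A330033J07Rik and Gm49291 on the opposite strand and cannot be told apart from them if strand was not used, had 15.8, 18.04 and 13.6 CPM untreated and 13.0, 13.0 and 13.9 CPM after 4OHT. Treated clone c lay between the untreated values, and the treated libraries were close to each other. Its log2 fold change of -0.26 ± 0.13 did not pass the test (edgeR adjusted p = 0.115). By library size alone (-0.46, adjusted p = 0.0145), without untreated clone c (-0.37, adjusted p = 0.0284) and without both libraries of clone c (-0.41, adjusted p = 0.0159) it was called lower, and over all 16 alternatives the adjusted p ran from 0.0145 to 0.554.

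Because reads of a library share its scaling, ratios of raw counts within a library carry no normalisation. There were 0.435, 0.388 and 0.559 reads of Id3 for each read of Id2 in the untreated libraries, and 8.54, 8.52 and 6.54 after 4OHT. The ratio of Id1 to Id2 was 0.514, 0.515 and 0.828 untreated and 5.95, 5.48 and 6.31 treated. For Id4 against Id2 it was 0.484, 0.491 and 0.275 untreated and 2.00, 2.02 and 1.61 treated. All 3 ratios were higher in every treated library, by 4.10, 3.29 and 2.21 on the log2 scale. An exact permutation test over the libraries, two-sided, gave p = 0.1 for each, the smallest that 3 against 3 libraries allow, and 0.1125 after Benjamini-Hochberg adjustment over 9 such ratios. Id3 also gained on Id1, from 0.847, 0.752 and 0.675 to 1.44, 1.55 and 1.04 reads per read (difference 0.81 on the log2 scale, the same exact p).

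The ID genes were compared per kilobase of exon, which may be the wrong length if introns were counted. Shares by gene span were not computed. Per kilobase of exon, Id2 made up 33.6%, 34.2% and 27.2% of the summed level of the 4 ID genes in the untreated libraries. After 4OHT it made up 3.79%, 3.94% and 4.14%. Id3 went from 19.9%, 18.1% and 20.7% to 44.1%, 45.7% and 36.8%. For these 2 genes the shares of the groups did not overlap, while those of Id1 (36.2% to 47.3% untreated, 45.4% to 54.8% treated) and Id4 (4.73% to 10.6% and 4.22% to 5.04%) did. The summed level was 39.8, 44.1 and 74.7 CPM per kb untreated and 70.4, 66.9 and 85.4 CPM per kb treated, with untreated clone c above treated a and b (exact permutation test that leaves the clones unpaired, two-sided, p = 0.3, smallest possible 0.1). Within each of the 3 clones, however, the summed level and the Id1 share were higher and the Id4 share lower after 4OHT. Shares of a sum depend on each other, so the fall of Id2 by itself pushes the other shares up. The rise of the Id1 share is therefore no gain on Id3, against which Id1 reads fell in each clone. Adjusted over these 5 quantities, p was 0.25 for the Id2 and Id3 shares and 0.3 for the others.

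**Figure D2:**
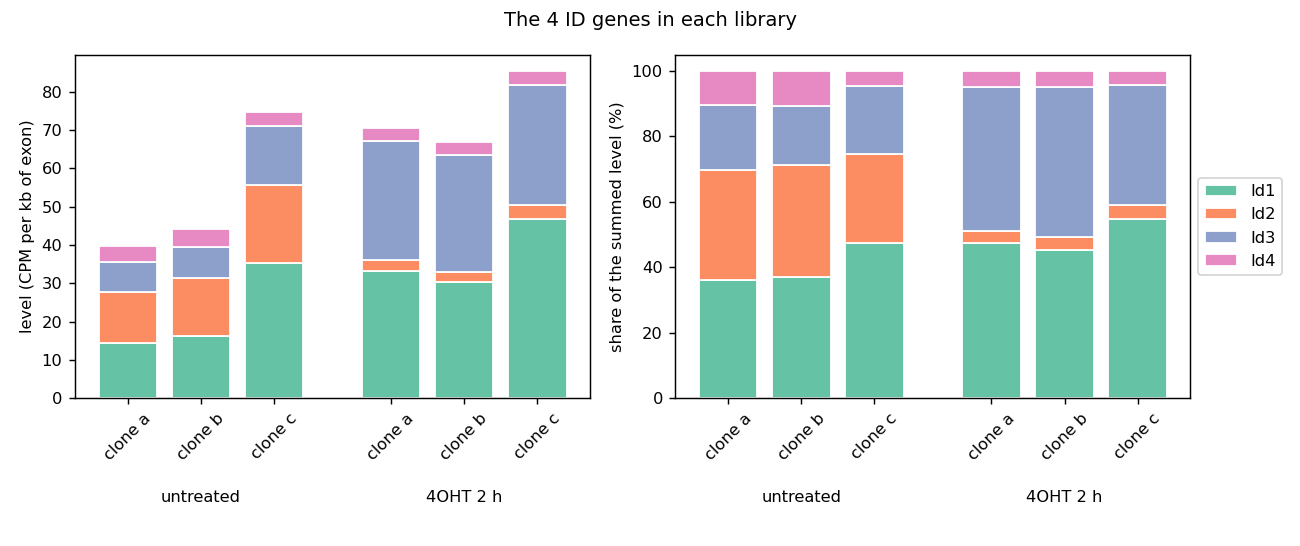
Level of the 4 ID genes in each library, stacked, as CPM per kb of exon (left) and as a share of their sum in percent (right), with 3 untreated and 3 treated clones along the x axis. The Id2 band shrinks from between 27.2% and 34.2% to about 4% and the Id3 band widens in every clone, and untreated clone c has the highest summed level of the untreated libraries.

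Among the pathway genes, the ligand Bmp4 (chromosome 14, 46383520 to 46390669, minus strand) rose from a low level. It had 3.84, 4.02 and 3.91 CPM untreated and 16.1, 13.6 and 13.7 CPM after 4OHT. The untreated libraries were almost equal, and each treated library was at more than 3 times their level. The mean was 3.92 ± 0.0883 CPM untreated and 14.5 ± 1.40 CPM treated, 3.68-fold higher (log2 fold change 1.88 ± 0.14, edgeR adjusted p = 3.06e-06), with 2.01, 1.71 and 1.76 in the clones. An antisense gene, Gm15222, covers 1764 bases of the Bmp4 span, and Gm15217, with 5 to 12 counts per library, covers 89, so the strand of these reads is not known.

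Bmpr1a (chromosome 14, 34410734 to 34503341, minus strand) encodes a type I receptor for BMP4 and BMP2. An antisense gene, Gm17110, overlaps it over 970 bases. Bmpr1a had 162, 164 and 173 CPM untreated and 196, 221 and 198 CPM after 4OHT, a small gap without overlap. The log2 fold change was 0.30 ± 0.07 (edgeR adjusted p = 0.00355, 1.23-fold). The rise did not pass the test by library size alone (0.10, adjusted p = 0.212) or without clone b (0.23, adjusted p = 0.0824).

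The receptor SMADs, which carry the signal into the nucleus, changed little. Smad1 (chromosome 8, 79338395 to 79399518, minus strand) went from 76.0, 87.5 and 93.6 CPM untreated to 60.7, 70.7 and 78.5 CPM. The groups overlapped, since treated clone c was above untreated clone a, but each clone was lower by a like amount (-0.32, -0.31 and -0.25). Its log2 fold change was -0.29 ± 0.11 (edgeR adjusted p = 0.0344, or 8.04e-05 with clone as a block). The call was lost without untreated b or c, treated a or b, clone a or clone b (highest adjusted p 0.182, lowest 0.0530). Smad5 (chromosome 13, 56703010 to 56742377, plus strand), which holds 3 small RNA models on the same strand, had 52.5, 53.0 and 53.9 CPM untreated and 58.1, 47.8 and 45.2 CPM after 4OHT, with treated clone a above all untreated libraries and b and c under them. Its log2 fold change was -0.07 ± 0.09 (edgeR adjusted p = 0.529), and by library size alone it was called lower (-0.27, adjusted p = 0.0272).

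Both inhibitors fell. Smad6 (chromosome 9, 63953076 to 64022059, minus strand), an inhibitory SMAD that binds the receptors and SMAD1, went from 38.2, 36.8 and 38.8 CPM to 20.4, 17.9 and 9.05 CPM. The untreated libraries were nearly equal, and treated clone c was lowest by a wide margin. The log2 fold change was -1.24 ± 0.20 (edgeR adjusted p = 0.000517, 2.36-fold lower), with -0.90, -1.03 and -2.07 in the clones and -0.98 without treated clone c. Bambi (chromosome 18, 3507923 to 3516404, plus strand) encodes a receptor look-alike without a kinase that damps BMP and TGF-beta signals. It had 22.8, 24.1 and 28.2 CPM untreated and 15.9, 18.2 and 15.6 CPM after 4OHT, which did not overlap (log2 fold change -0.59 ± 0.12, edgeR adjusted p = 0.00168, 1.51-fold lower).

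Set against each other within a library, Bmp4 had 0.101, 0.109 and 0.101 reads for each read of Smad6 untreated and 0.788, 0.759 and 1.52 after 4OHT, 3.22 higher on the log2 scale. Relative to the receptor gene Bmpr1a, Bambi fell from 0.141, 0.147 and 0.163 to 0.0808, 0.0820 and 0.0790 reads per read. Smad1 and Smad5 were lower against Bmpr1a too (differences of -0.60 and -0.39 on the log2 scale), with no overlap between the groups. Each of these 4 comparisons gave p = 0.1 in the exact permutation test, the smallest possible. Smad1 against Smad5 overlapped between the groups (difference -0.21, exact permutation p = 0.7).

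Levels were compared between genes per kilobase of exon. In untreated cells Bmpr1a was highest with 26.2 ± 0.967 CPM per kb, followed by Id1 (22.04 ± 11.6), Id2 (16.3 ± 3.62), Smad1 (13.7 ± 1.42), Smad6 (11.8 ± 0.319), Id3 (10.4 ± 4.35), Smad5 (7.16 ± 0.0971), Bambi (4.93 ± 0.553), Id4 (4.11 ± 0.577) and Bmp4 (1.75 ± 0.0393). Neighbours from Bmpr1a to Smad1 overlapped in their libraries, as did Smad6 and Id3, and Bambi and Id4, whereas Smad6 was under every Smad1 library, Smad5 under every Id3 library, Bambi under every Smad5 library and Bmp4 under every Id4 library. After 4OHT the order began with Id1 (36.8 ± 8.76), Bmpr1a (32.3 ± 2.23) and Id3 (31.0 ± 0.446), whose libraries overlapped. Smad1 (11.2 ± 1.43) followed, apart from the genes on either side. Smad5, Bmp4, Smad6, Id4, Bambi and Id2 came next in this order, each overlapping its neighbours. Id2 was last with 2.94 ± 0.509 CPM per kb. Whether introns were counted is not given in the sources used here. Per kilobase of gene span, the long genes drop and the untreated order starts with Id1 (22.04), Id2 (11.9) and Id3 (8.28 CPM per kb), so that the 2 orders differ (Spearman's rho 0.418 over 10 genes, a description).

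**Figure D3:**
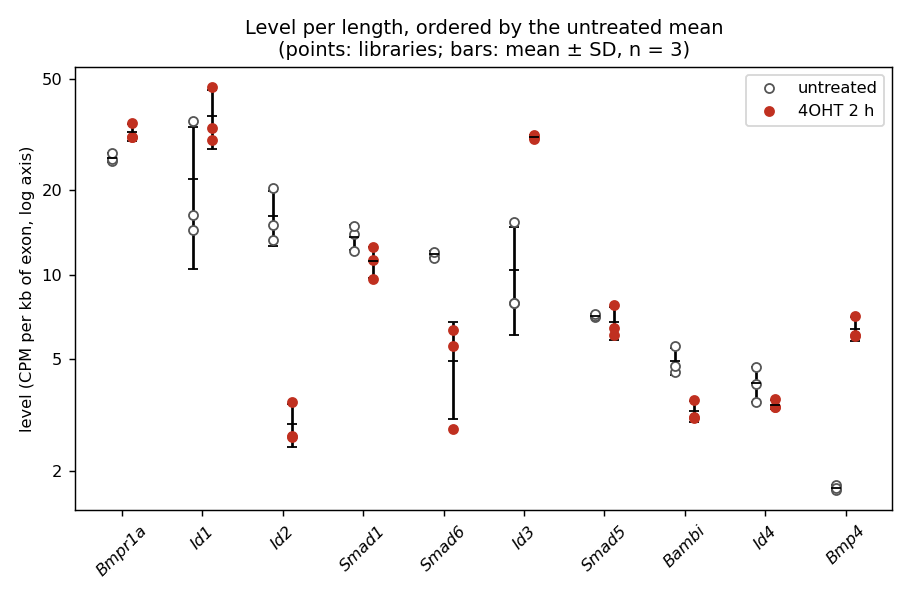
Level of each gene in CPM per kb of exon (log axis), ordered by the untreated mean. Open points are untreated and filled points treated libraries, with bars for the mean ± SD of 3 libraries. Id2 falls from the third place to the last, and Id3 and Bmp4 move up.

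Clones differed in the level of 3 of the 10 genes once treatment was in the model: Id1 (edgeR joint test of the clone terms, adjusted p = 0.000153), Id2 (0.00430) and Smad1 (0.00557). Of all genes tested, 12.6% differed between clones. Clone c was highest for all 3 in both groups. Id3 did not pass this test (adjusted p = 0.112), although untreated clone c was the highest. Whether clones respond differently could not be tested with 1 library of each kind per clone.

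Start regions were searched for short motifs on both strands. Bambi was left out of this search and no window was found for Id1, which left RefSeq windows (GRCm38.p6) for 8 of the 10 genes. Each covers the 250 bases before the start site, and those printed are Bmp4, which rose, Smad6 and Id2, which fell, and Id4, which did not pass, cut to the stretch outside annotated exons. The Id3 window lies wholly within an annotated exon and is not printed. The printed Id2 stretch lies outside exons but inside the annotated Id2 gene (25093799 to 25097140), downstream of that gene's start. The Bmpr1a window (34502547 to 34502796) also lies inside its annotated gene, which runs from 34410734 to 34503341. So does Smad5 window 3 of 3 (56703418 to 56703667). Capitals mark GGCGCC (a GC-rich SMAD element), GCGNGGGCG (an EGR site) or CCGGAA (an ETS core), on either strand.
Bmp4, chr14:46390670-46390919, minus strand: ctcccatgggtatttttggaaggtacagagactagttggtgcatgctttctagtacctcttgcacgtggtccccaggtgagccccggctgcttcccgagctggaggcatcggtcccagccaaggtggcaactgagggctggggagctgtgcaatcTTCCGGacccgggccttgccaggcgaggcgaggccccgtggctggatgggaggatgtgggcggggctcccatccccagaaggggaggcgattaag
Smad6, chr9:64022060-64022309, minus strand: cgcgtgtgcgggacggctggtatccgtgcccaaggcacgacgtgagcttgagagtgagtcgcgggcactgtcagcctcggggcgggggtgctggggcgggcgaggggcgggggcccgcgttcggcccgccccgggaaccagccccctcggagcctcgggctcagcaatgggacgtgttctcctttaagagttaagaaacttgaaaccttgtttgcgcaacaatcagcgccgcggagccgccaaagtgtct
Id2, chr12:25096254-25096342, minus strand: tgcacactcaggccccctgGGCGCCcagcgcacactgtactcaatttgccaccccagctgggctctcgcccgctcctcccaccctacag
Id4, chr13:48260866-48261115, plus strand: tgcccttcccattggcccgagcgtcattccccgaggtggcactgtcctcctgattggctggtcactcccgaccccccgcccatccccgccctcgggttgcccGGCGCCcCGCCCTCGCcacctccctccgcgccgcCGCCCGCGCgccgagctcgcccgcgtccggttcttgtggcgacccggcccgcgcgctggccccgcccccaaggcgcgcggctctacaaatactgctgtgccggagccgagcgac
GGCGCC was found in the windows of Id2, Id4 and Bmpr1a and in 1 of 3 Smad5 windows, and in 9.59% of 32851 windows of all genes. An EGR site was found only in Id4 among the 8 genes, at 2 places, positions -141 to -133 and -114 to -106 counted from the start site (4.70% of all windows), and CCGGAA only in Bmp4 (12% of all windows). TGANTCA (AP-1, 6.75% of all windows) and TGACGTCA (CRE, 1.55%) were in none of the 8. The short SMAD box GTCT, not capitalised, was in Id2, Id3, Bmp4, Smad6 and all Smad5 windows and is in 82.9% of all windows. The windows were rich in G and C, 60.0% to 78.8%, against a median of 52.4% over all windows. GGCGCC holds only these letters, and its share over all windows is not matched for them. These are matches of letters, not measured binding.

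The rest of the pathway was followed in lists by role, 62 further genes of which 42 passed the filter on low counts. Of these, 16 were higher and 7 lower (median log2 fold change 0.15), or 9 and 10 by library size alone (median -0.05) and 15 and 8 of 43 without clone c. The share called was near the 57.1% over all genes. Without clone c, 4159 of all 14059 genes tested were higher and 4328 lower. Below the filter were 8 of 12 other ligands and 9 of 16 secreted antagonists, among them Nog, Chrdl1, Grem1 and Cer1.

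Of the 4 other ligands tested, Bmp8b rose and Bmp7 fell. Bmp8b went from 11.9 ± 1.62 to 21.7 ± 3.35 CPM (log2 fold change 0.86 ± 0.15, edgeR adjusted p = 0.000662). It is a near copy of Bmp8a (-0.34 ± 0.24, not called), which may share its reads, and it overlaps Ppie and Oxct2b. Bmp7 went from 9.56 ± 0.343 to 4.55 ± 0.509 CPM (-1.08 ± 0.15), so it moved against Bmp4. Bmp6 had 0.51 ± 0.26 and was not called.

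Of 9 further receptors and co-receptors, 3 were higher and 3 lower, and with Bmpr1a 4 and 3 of 10, which by library size alone became 0 and 4. The co-receptor gene Rgma, which overlaps Gm44758, fell most, from 17.7 ± 0.636 to 3.81 ± 0.146 CPM (-2.21 ± 0.13, edgeR adjusted p = 5.77e-07). Eng (endoglin), another co-receptor, fell from 33.2 ± 1.43 to 16.4 ± 1.81 CPM (-1.02 ± 0.11). The type II receptor Acvr2b fell by 0.34 ± 0.09 on the log2 scale, a call lost without clone b. The rises were small: Acvr2a (overlapping Orc4) 0.39 ± 0.09, Rgmb 0.36 ± 0.07 and Acvr1 (overlapping Gm17409) 0.19 ± 0.07. None of these 3 passed by library size alone, where Acvr1 turned to -0.014, and Acvr2a was not called without clone b either. Acvr1 was called by 4 of 16 alternatives and lost its call without untreated a or c, any treated library or any clone. Bmpr2, the main type II receptor, had 0.10 ± 0.07, Acvrl1 -0.02 ± 0.33 and Bmpr1b -0.44 ± 0.19, none called, the last lower in the fit blocked on clone (edgeR adjusted p = 0.0184).

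Smad4, the shared partner of the receptor SMADs, rose from 104 ± 4.95 to 149 ± 7.80 CPM (0.52 ± 0.07, edgeR adjusted p = 0.000104), while Smad9, at about 1 CPM, was not called (-0.26 ± 0.36). Of 10 other inhibitors inside the cell, 5 were higher and 1 lower, or with those 2 genes 5 and 3 of 12 (3 and 4 by library size). Skil (SnoN), a corepressor of SMADs, went from 122 ± 4.97 to 321 ± 19.0 CPM. Smurf2, a ubiquitin ligase for SMADs and receptors, rose by 0.54 ± 0.06 and Tob1, which restrains BMP signals, by 0.52 ± 0.10. Ski, the relative of Skil, fell by 0.32 ± 0.08 on the log2 scale, a call lost without clone b. Smad7, the other inhibitory SMAD, had 384 ± 42.7 and 463 ± 57.9 CPM (0.27 ± 0.10, edgeR adjusted p = 0.0464), a rise that 8 of 16 alternatives did not call, among them library size (0.07), DESeq2 size factors, and leaving out untreated b or c, treated a or b, clone a or clone b.

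Among secreted antagonists 2 of 7 tested were higher and 1 lower, also by library size. Twsg1 (twisted gastrulation), which binds BMP ligands together with chordin, had the highest log2 fold change in these lists, from 34.5 ± 3.18 to 286 ± 37.2 CPM (3.05 ± 0.11, edgeR adjusted p = 2.23e-08). Crim1, which overlaps Fez2, rose from 48.5 ± 2.26 to 84.0 ± 6.51 CPM (0.79 ± 0.08). Fstl1 fell by 0.27 ± 0.09 on the log2 scale, not so in DESeq2 or without untreated a, treated a, treated c or clone a. Chrd (-0.04 ± 0.35), Fst (0.37 ± 0.33), Bmper (0.37 ± 0.34) and Dand5 (0.12 ± 0.19) were not called.

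Other known BMP targets moved in both directions. Of 8 tested, 3 were higher and 1 lower (1 and 1 by library size). Among the 3 is Smad7, counted with the inhibitors too, whose rise only 8 of 16 alternatives called. Runx2, a regulator of bone formation that overlaps Supt3, rose from 1.21 ± 0.421 to 8.20 ± 2.35 CPM (2.77 ± 0.30, edgeR adjusted p = 3.35e-05). Dusp9, a phosphatase that acts on ERK, fell from 18.04 ± 1.22 to 13.1 ± 1.28 CPM (-0.47 ± 0.12), a call lost without clone a. Hey1 (0.73 ± 0.29, edgeR adjusted p = 0.0495) was called by 4 of 16 alternatives, and not without any 1 untreated library, treated a or c, or any clone. Msx2 (0.78 ± 0.33) was called once clone was a block (edgeR adjusted p = 0.000855), and Msx1 (0.63 ± 0.41), Gata2 (0.01 ± 0.32) and Gata3 (0.01 ± 0.18) were not.

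The E proteins, which ID proteins pair with, changed little. Tcf3 rose from 110 ± 3.67 to 144 ± 8.18 CPM (0.39 ± 0.07) and Tcf12, which overlaps several other gene models, by 0.29 ± 0.07, the latter not by library size (0.09) or without clone a (edgeR adjusted p = 0.0504). Tcf4 had 233 ± 24.4 and 196 ± 23.1 CPM (-0.25 ± 0.10, edgeR adjusted p = 0.0543), and passed as lower once clone was a block (3.75e-05).

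**Figure D4:**
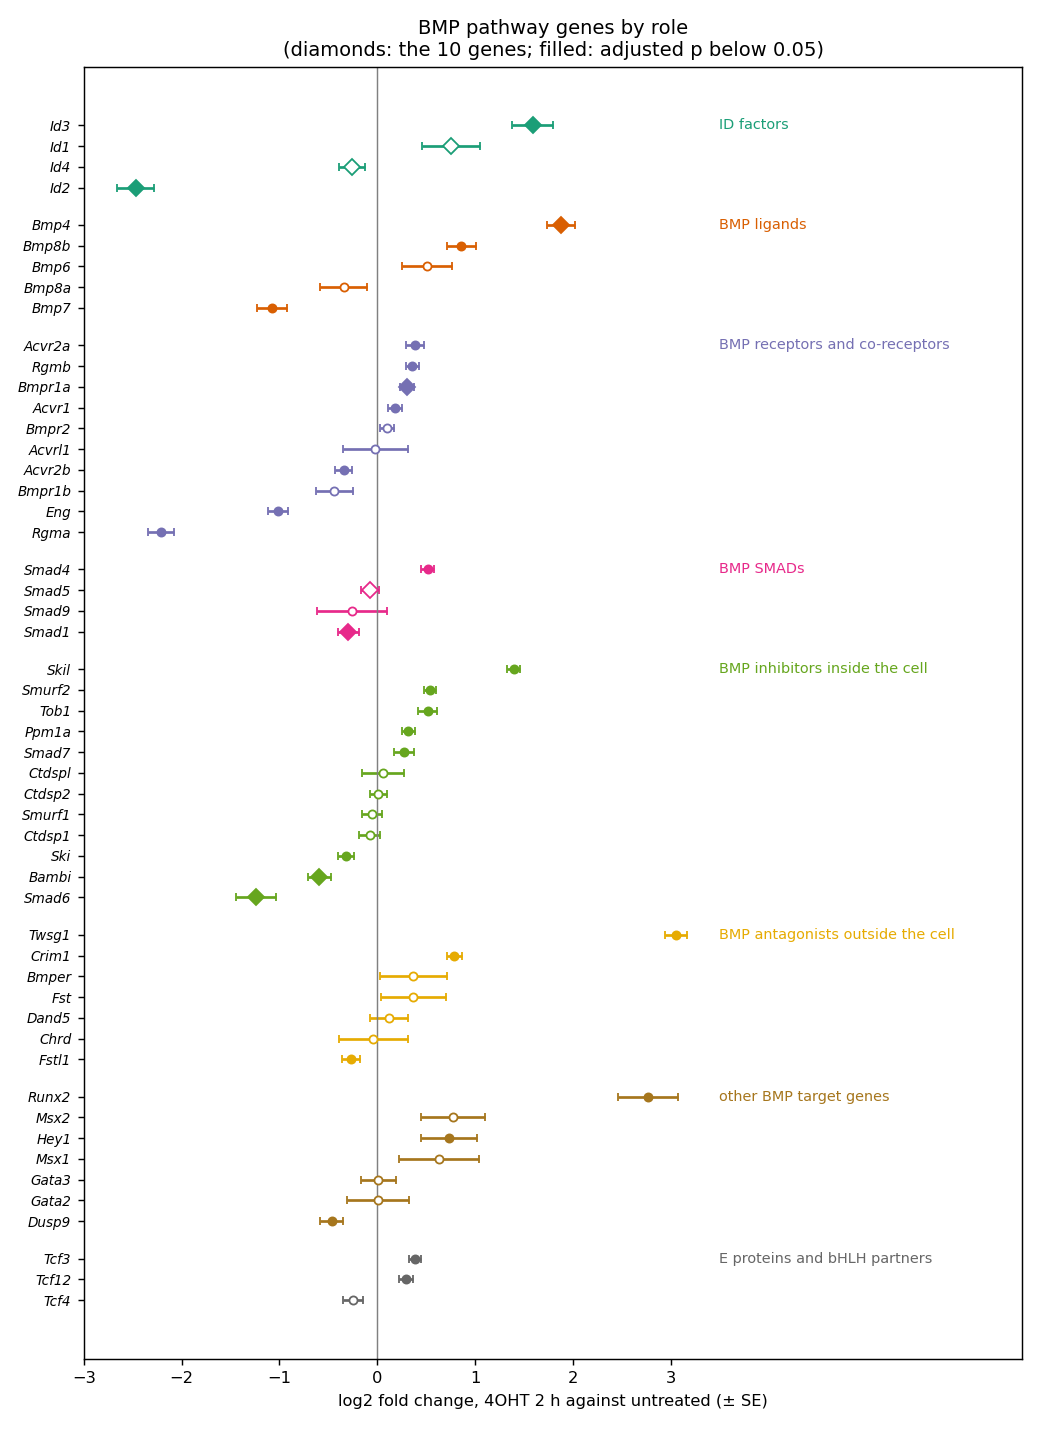
Log2 fold change after 2 h of 4OHT (x axis, ± SE, TMM scaling) of the 10 genes (diamonds) and the tested genes of the pathway lists (circles), grouped by role. Filled symbols have an edgeR adjusted p below 0.05. Smad7, in 2 lists, is drawn once, with the inhibitors. Members of the same role lie on both sides of 0: Id3 against Id2, Bmp4 against Bmp7, and Skil against Smad6.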

How the data were processed

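Nascent RNA of 6 libraries was analysed. Per the labels' protocols, ethynyl uridine-labelled RNA was captured by click chemistry after DNase treatment. STAR, featureCounts and mm10 appear in the submitters' processing notes. Versions, the strand setting and any use of introns: not given in the sources used here. Raw counts were deposited by the authors, 1 row per symbol, without normalisation.

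Genes kept by edgeR 4.0.16 filterByExpr (minimum count 10, total 15) numbered 13869. Libraries were scaled by TMM and 4OHT was tested against untreated with estimateDisp, glmQLFit and glmQLFTest in R 4.3.3, Benjamini-Hochberg adjusted over all genes, called below 0.05. SE is the log2 fold change divided by the square root of F. The script was tested on simulated data. Positions, exon lengths and overlaps come from GENCODE M21 (GRCm38, the assembly of mm10).

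The clone letters, given in both groups by the labels, pair the libraries: libraries of clone a, clone b and clone c deviated together from their group means (r = 0.282, 0.165 and 0.357). The fit without the block is the one reported. Clones are the replicates; nothing says they were cultured apart, so the p-values reflect only how these libraries vary, which may be technical. The 10 genes and all lists were chosen with earlier results of these data known. Named list genes are up to 3 called per direction and list with the smallest adjusted p; others are named after their values were seen, to complete a count. Alternatives were other scalings (DESeq2 size factors, library size), filters (none, or 1 CPM in 3 libraries), the test of DESeq2 1.42.0, voom from limma 3.58.1, the clone block, an adjusted p of 0.01, and each library and clone left out.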

Additional observations from a re-analysis of the deposited data

Results flagged for a closer look

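In 2 of the 10 genes the sign of the difference was not the same in all clones. Each clone had 1 library per group, so this difference between clones was not tested. For Id4 the difference of log2 CPM, 4OHT minus untreated, was -0.27 in clone a, -0.47 in clone b and 0.027 in clone c, which hardly changed. For Smad5 it was 0.14 in clone a, -0.15 in clone b and -0.25 in clone c. Neither gene passed the test over all 3 clones.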

How the results depend on the processing

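Direction and call of the 10 genes and 22 named pathway genes were recomputed in 544 gene-by-setting combinations, of which 475 kept both, 57 lost the call, 10 gained it and 2 reversed. Id2, Id3, Bmp4, Smad6 and Bambi were called in the same direction in all 16 refits, with highest adjusted p of 0.000599, 0.00634, 0.000617, 0.0122 and 0.0142, each without clone b. The reversals were Acvr1 by library size (-0.014) and Smad5 without treated clone c (0.000645), neither called there; the cause was not tested. By library size alone, 2408 of all genes and 9 pathway genes outside the 10 were higher, against 3953 and 16, since this scaling shifts all fold changes by -0.20. With clone as a block, 4 of the 10 genes were higher and 4 lower, Id1 being the gain, and no other call among the 10 changed. Gene span in place of exon length gave Spearman's rho of 0.418 with the untreated order. Genes near 1 CPM, such as Hey1 and Smad9, are limited by depth.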

Other observations

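Over the 6 libraries, the genes whose log2 CPM followed each ID gene most closely were Agbl4 and Myo7a for Id1 (Pearson's r 0.996 and 0.995), Fam198b and Eya1 for Id2 (both 0.999), Mat2a and Phf23 for Id3 (both 0.998), and Tcp11l1 and Prmt3 for Id4 (0.995 and 0.989). These are the highest of 11320 genes searched, limited to a mean log2 CPM of 2 or more. The values describe 6 points that share treatment, clone and depth. For Id2, 1090 genes had r above 0.95, for Id3 653, for Id1 80 and for Id4 11.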
